A study of Rattus norvegicus with 6 samples.

Results

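The expression of 10 genes of the NF-kB system was followed in transplanted rat hearts, as reads counted on each gene. They are Nfkb1, Nfkb2, Rel and Relb, which encode 4 of the 5 transcription factors of the family, Nfkbia, Nfkbie, Bcl3 and Nfkbiz, which encode proteins of the IkB family, and Tnfaip3 and Birc3, which encode enzymes that edit or attach ubiquitin chains in the signalling complexes upstream. They were taken by symbol from the deposited gene table, where each of the 10 symbols appears once among 22250 genes. The hearts came from Sprague-Dawley rats labelled WT, 3 young donors of 10 weeks (animals 3, 13 and 15) and 3 aged donors of 1 year (animals 3, 4 and 7). Every heart was stored cold in preservation solution, transplanted heterotopically into a young recipient of the same strain and sampled as left ventricular myocardium on postoperative day 1. Polyadenylated RNA was sequenced in paired reads. Each library is a separate donor animal, and animal numbers count within a group, so the number 3 names a different heart in each group. A heterotopic graft is perfused but does not carry the recipient's circulation, and no heart without transplantation was analysed here, so all 6 hearts share storage, surgery and reperfusion, and levels are relative to transplanted young hearts.

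NF-kB factors are dimers that wait in the cytoplasm, held there by IkB proteins. When receptors for cytokines or microbial products are engaged, the IkB kinase complex marks the IkB proteins for destruction, the dimers enter the nucleus, and they bind short DNA elements near genes of inflammation and cell survival. Several of these genes encode the system's own parts: new IkB-alpha from Nfkbia pulls dimers out of the nucleus, the TNFAIP3 protein takes apart the ubiquitin scaffolds that feed the kinase, and the precursor from Nfkb2 is processed in the slower, noncanonical arm to a factor that pairs with Relb. In the injured heart the system is known from resident cells, cardiomyocytes included, and from infiltrating leukocytes.

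The DNA letters that the family reads are shown first, since several members are known to be regulated by it. RefSeq promoter windows (assembly GRCr8), from 250 bases before to 50 bases after each gene's start, were at hand for 8 of the 10 genes, Nfkb1, Nfkb2, Rel, Nfkbia, Nfkbie, Bcl3, Nfkbiz and Tnfaip3, and were searched on both strands for the NF-kB consensus, which has 10 letters. All 8 windows held at least 1 match, against 1400 of 33469 windows in the whole table (4.18%). No match was listed for Rela, the fifth factor, but whether it had a window was not recorded, so its promoter is left aside. A match is a run of letters and not a measured binding site. The stretches of 30 bases below, on each gene's own strand, lie at chr2:226805440-226805469 (minus strand) for Nfkb1, chr1:255108344-255108373 (plus strand) for Nfkb2, chr14:101922000-101922029 (minus strand) for Rel, chr6:78597084-78597113 (minus strand) for Nfkbia, chr9:22948017-22948046 (minus strand) for Nfkbie, chr1:88613574-88613603 (minus strand) for Bcl3 and chr11:58251698-58251727 (plus strand) for Nfkbiz. For Tnfaip3, on the minus strand, the upstream stretch lies at chr1:15544130-15544159 and the downstream one at chr1:15544021-15544050. Capitals mark the bases covered by matches.
Nfkb1: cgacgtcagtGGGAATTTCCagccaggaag
Nfkb2: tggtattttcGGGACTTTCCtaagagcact
Rel: gtaggcagcGGGAAATCCCCccccgttccg
Nfkbia: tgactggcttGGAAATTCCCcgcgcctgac
Nfkbie: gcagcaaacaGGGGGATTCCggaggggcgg
Bcl3: tcggcggcagGGGAAGTCCCgcagcccggc
Nfkbiz: tttttggcctGGGAATTTCCagcgtgtgga
Tnfaip3 upstream: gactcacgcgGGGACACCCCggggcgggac
Tnfaip3 downstream: gactGGAAAGTCCCtcGGAAATCCCCctgt

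Read on the strand that carries the consensus, some of these matches were identical. The run GGGAATTTCC was shared by Nfkb1, Nfkbia and Nfkbiz, where Nfkbia carries it on the opposite strand. GGGACTTTCC was shared by Nfkb2 and Tnfaip3, and GGGGATTTCC by Rel and Tnfaip3. The Rel stretch holds 3 overlapping matches, and Tnfaip3, with 3 separate matches in its window, held the most separate stretches of the 8 genes. Positions differed as well: counted from the start, the Nfkb1 match covers bases 4 to 13 after it, the Nfkbiz match -13 to -4 and the Nfkb2 match -20 to -11. Those of Nfkbia and Bcl3, at -31 to -22 and -38 to -29, lie a little farther out, while the Nfkbie match begins at -164 and the upstream Tnfaip3 match at -170.

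**Figure D1:**
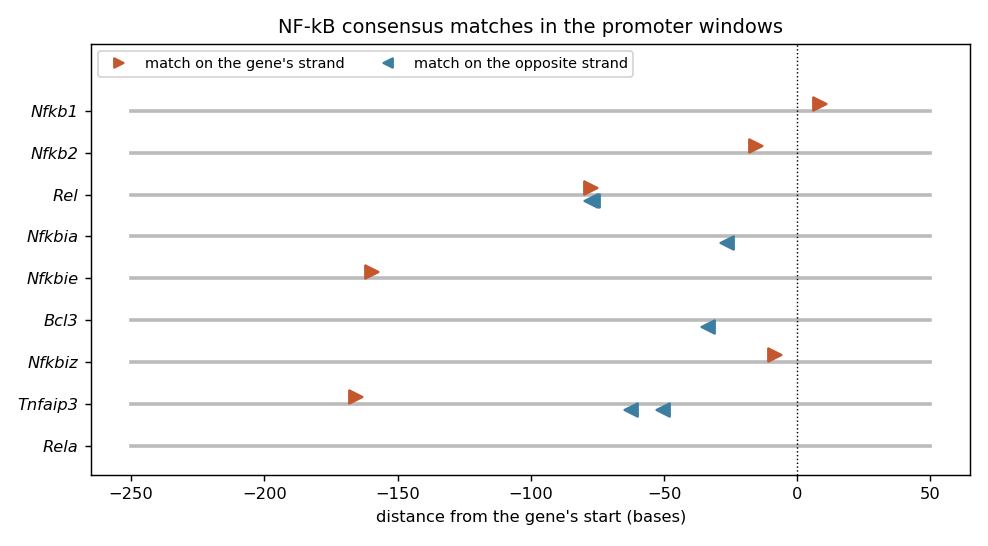
Position of each NF-kB consensus match in the promoter windows of 8 members, in bases from the gene's start. A dotted line at 0 marks the start. Triangles point along the strand of each match, and 8 of 8 members hold at least 1 match. A line is also drawn for Rela, without a match, but whether Rela had a window was not recorded.

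Total counts ran from 21457509 to 24560869 per heart, and mitochondrial genes took 21.7, 21.7 and 11.9% of them in young animals 3, 13 and 15 and 6.56, 7.99 and 10.3% in aged animals 3, 4 and 7, so the mitochondrial share was lower in every aged heart and its part in the members' values was not tested. Values between hearts are given as CPM, a gene's reads per 1000000 reads of a library whose size was corrected with edgeR's TMM factors. Before the members, a few libraries need naming. In aged animal 3 the summed CPM of cardiomyocyte markers was 173, against 6536 and 7501 in the other aged hearts and 12309 to 94999 in the young ones, and Myl2, the ventricular light chain, stood at 0.887 CPM there, so this library nearly lacks the defining transcripts of its labelled tissue. Young animal 15 lay between the groups: its cardiomyocyte markers, at 12309 CPM, were the lowest of the young hearts, and its macrophage markers, at 2351 CPM, were above the other young hearts (369 and 400) and below the aged ones. Aged animal 4 had the highest atrial marker sum, 1572 CPM against 42.9 to 446 CPM in the other hearts. Nppa held 1367 CPM of it. Myl4 stood at 47.7 CPM there and at 0.821 to 4.66 CPM elsewhere. Myl7 was at 69.1 CPM, but also at 49.7 CPM in young animal 3, and Tbx5 and Nr2f2 were not highest in aged animal 4. The part of this in that heart's values of the members was not tested. Of 12 neutrophil markers 10 were tested and 9 rose, and the summed level was 7.13 to 152 CPM in young and 379 to 1519 CPM in aged hearts, with Camp, Mpo and Elane at 0 in some young hearts. Macrophage markers rose in 5 of 10, from sums of 369 to 2351 CPM in young to 3683 to 7089 CPM in aged hearts. Of T and B cell markers 1 of 8 tested rose (sums 29.0 to 78.1 against 95.8 to 145 CPM), while 1 of 6 endothelial markers (sums 1096 to 1578 against 852 to 1320 CPM), 2 of 6 fibroblast markers (6250 to 7805 against 2019 to 4144 CPM) and 3 of 9 cardiomyocyte markers fell, beside 13.2% of all genes tested that rose and 19.0% that fell, and Cldn5, an endothelial marker, was at 0 in all 6 hearts. These are pieces of whole tissue, so fewer cells of a type and less RNA per cell cannot be told apart, and the part of any cell type in the values of the 10 genes was not tested.

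Which of the 10 genes differed with donor age was read from edgeR's quasi-likelihood test over 13784 genes with enough reads by its filter, all 10 members included. A gene is said to have risen or fallen where it passed the limits used in the study, a fold change over 1.5 or under 0.67 together with p under 0.05. The p-value was taken here before adjustment, a point that the study's text leaves unstated. By these limits 9 of the 10 members rose in aged donor hearts and 0 fell, against 13.2% of all genes tested that rose. In all 10, each aged heart was above each young heart, against 21.0% of all genes tested. The median log2 fold change was 1.55 over the members and 0.016 over all genes tested. No gene in the table reached an adjusted p-value under 0.05 in this fit, while 4731 had an unadjusted p-value under 0.05. The smallest adjusted p-value, 0.0916 from edgeR, was shared by 1287 genes, and 5 members were among them (Nfkb2, Relb, Nfkbia, Tnfaip3 and Birc3). Other tools differed on this point: 9 members had an adjusted p-value under 0.05 with DESeq2, beside 26.1% of all genes, and 10 with limma-voom, beside 61.1%. Without young animal 15, edgeR gave 9 members an adjusted p-value under 0.05, beside 48.3% of all genes tested.

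**Figure D2:**
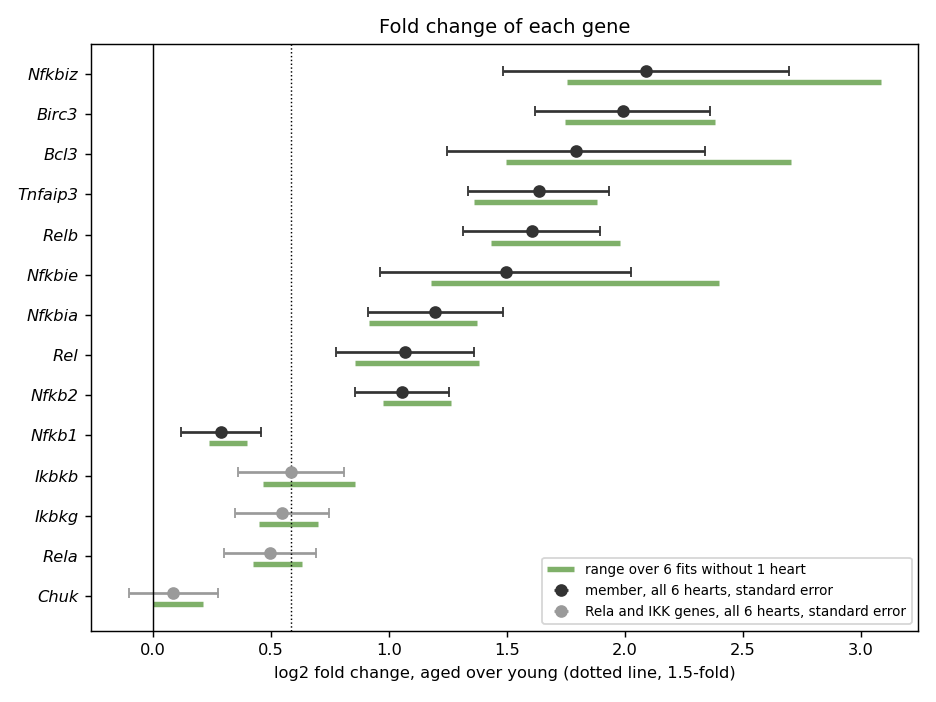
Log2 fold change of each gene in aged over young donor hearts (edgeR, n = 3 against 3), with its standard error as a bar and, in green, the range over the 6 fits that each leave out 1 heart; Rela and the IkB kinase genes are in grey. Among the members Nfkbiz lies farthest to the right at 2.09 and Nfkb1 nearest to 0 at 0.29, left of the dotted line at 1.5-fold.

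The factor genes rose unequally. Nfkb1 (chr2:240773456-240866689 in the build of the table, Rnor 6.0, minus strand), which encodes the precursor of the common partner of Rela, had 98.2, 103 and 115 CPM in young animals 3, 13 and 15 and 137, 119 and 131 CPM in aged animals 3, 4 and 7. The groups did not overlap, although the lowest aged value was only 1.03 times the highest young one. Its fold change of 1.22 (log2 0.29, SE 0.17, edgeR adjusted p = 0.252) was short of the limits, and it was the only member that was. Nfkb2 (chr1:266053002-266059256, plus strand), the precursor gene of the noncanonical arm, had 37.6, 37.3 and 51.5 CPM in young and 86.2, 79.8 and 97.0 CPM in aged hearts in the same order of animals. It rose 2.08-fold (log2 1.06, SE 0.20, edgeR adjusted p = 0.0916), and the lowest aged heart stood well clear of the highest young one.

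Relb and Rel encode factors that carry their own transactivation domains. Relb (chr1:80517411-80544825, minus strand), the usual partner of the processed Nfkb2 product, was counted at 10.3, 11.6 and 19.5 CPM in young and 39.3, 38.7 and 48.3 CPM in aged hearts. Its rise of 3.04-fold (log2 1.61, SE 0.29, edgeR adjusted p = 0.0916) was the largest among the factor genes, and young animal 15 was the highest young heart. Rel (chr14:108491069-108509892, minus strand), a factor best known from lymphocytes and myeloid cells, had 6.29, 4.39 and 8.67 CPM in young and 14.4, 13.2 and 13.1 CPM in aged hearts. With 69 to 439 reads per heart, the fewest of the factor genes, it rose 2.10-fold (log2 1.07, SE 0.29, edgeR adjusted p = 0.0921). The aged hearts lay close together for Rel, with an SD of 0.734 CPM around 13.6 (n = 3), and the spread was in the young hearts, with an SD of 2.15 CPM around 6.45 (n = 3).

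Rela, the fifth factor and not among the 10 genes, gives the comparison. It stood at 76.8, 74.9 and 88.9 CPM in young and 125, 91.9 and 122 CPM in aged hearts. Every aged heart was above every young one, but the fold change of 1.41 (log2 0.50, SE 0.20, edgeR adjusted p = 0.134) did not pass the limits. Of the kinase complex, Ikbkb, a catalytic subunit, passed them narrowly (log2 0.59, SE 0.22, edgeR adjusted p = 0.127) and did so in only 1 of the 6 fits that leave out a heart. Ikbkg, its regulatory subunit, was higher by 0.55 on the log2 scale and short of the limits, and Chuk, the other catalytic subunit, by 0.087.

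Among the classical IkB genes, Nfkbia and Nfkbie had different patterns among the hearts. Nfkbia (chr6:76267228-76270457, minus strand), which encodes IkB-alpha, had 69.1, 68.9 and 50.1 CPM in young and 196, 108 and 127 CPM in aged hearts. It rose 2.29-fold (log2 1.20, SE 0.29, edgeR adjusted p = 0.0916). Aged animal 3 stood 1.67 times above the mean of the other aged hearts, and young animal 15 was the lowest heart of all in CPM, which held for no other member. This order depends on the scaling. By the deposited FPKM values, scaled by gene length and library total alone, young animals 3, 13 and 15 had 34.0, 32.2 and 34.8. Without aged animal 3 the log2 fold change of Nfkbia was 0.92, still past the limits, and without it and young animal 15 it was 0.81. Nfkbie (chr9:17828408-17835240, minus strand), which encodes the less abundant IkB-epsilon, had 7.93, 6.74 and 25.3 CPM in young and 43.6, 32.4 and 37.1 CPM in aged hearts. Here young animal 15 stood 3.45 times above the mean of the other young hearts and approached the aged ones. The rise of 2.82-fold (log2 1.5, SE 0.53, edgeR adjusted p = 0.115) was the least stable of the 9: with 1 heart left out it passed the limits only without young animal 15, where the log2 fold change was 2.40, and the value was between 1.18 and 1.6 without any other heart.

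Bcl3 and Nfkbiz encode nuclear proteins of the IkB family, which bind NF-kB dimers on DNA rather than hold them in the cytoplasm. Bcl3 (chr1:80730499-80744831, minus strand) had 7.80, 7.95 and 27.3 CPM in young and 59.2, 37.7 and 53.2 CPM in aged hearts, a rise of 3.47-fold (log2 1.80, SE 0.55, edgeR adjusted p = 0.0962). Nfkbiz (chr11:47243342-47271487, plus strand), which is known to be needed for a set of secondary response genes such as Il6, had 6.35, 7.44 and 26.2 CPM in young and 66.0, 37.6 and 67.1 CPM in aged hearts. Its 4.25-fold rise (log2 2.09, SE 0.61, edgeR adjusted p = 0.0927) was the largest of the 10 members. As for Nfkbie, young animal 15 was the highest young heart for both genes by a wide margin. It stood at 3.47 times the mean of the other young hearts for Bcl3 and 3.80 times for Nfkbiz, and aged animal 4 was the lowest aged heart for both. Without young animal 15 the log2 fold changes were 2.71 for Bcl3 and 3.09 for Nfkbiz, and with each heart left out in turn they stayed at or above 1.5 and 1.75. Bcl3 and Relb are near neighbours on chromosome 1, with 9 other genes of the table in the 186 kb between them, and no member overlaps another gene of the table.

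Both genes of ubiquitin enzymes rose in aged hearts. Tnfaip3 (chr1:14402913-14412807, minus strand), a deubiquitinase and ligase that ends signalling to the kinase complex, had 11.9, 11.8 and 12.8 CPM in young and 51.1, 24.0 and 38.1 CPM in aged hearts. In CPM the young hearts were nearly level, with an SD of 0.532 CPM around 12.1 (n = 3), and young animal 15 did not stand apart. By the deposited FPKM values, scaled by gene length and library total alone, it was higher, at 5.67 against 3.74 and 3.54 in young animals 3 and 13. Tnfaip3 rose 3.11-fold (log2 1.63, SE 0.30, edgeR adjusted p = 0.0916), and 1.36 on the log2 scale without aged animal 3, its highest heart. Birc3 (chr8:6048969-6076598, minus strand), a ubiquitin ligase that guards against cell death and restrains the noncanonical kinase, had 7.2, 4.77 and 10.9 CPM in young and 32.4, 21.8 and 36.9 CPM in aged hearts. Its 3.98-fold rise (log2 1.99, SE 0.37, edgeR adjusted p = 0.0916) was second to that of Nfkbiz, and the gap between the highest young and the lowest aged heart was wide. Its close relative Birc2, on the adaptor list described further on, had 31.4 to 45.8 CPM in young and 27.8 to 35.4 CPM in aged hearts and did not pass the limits.

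**Figure D3:**
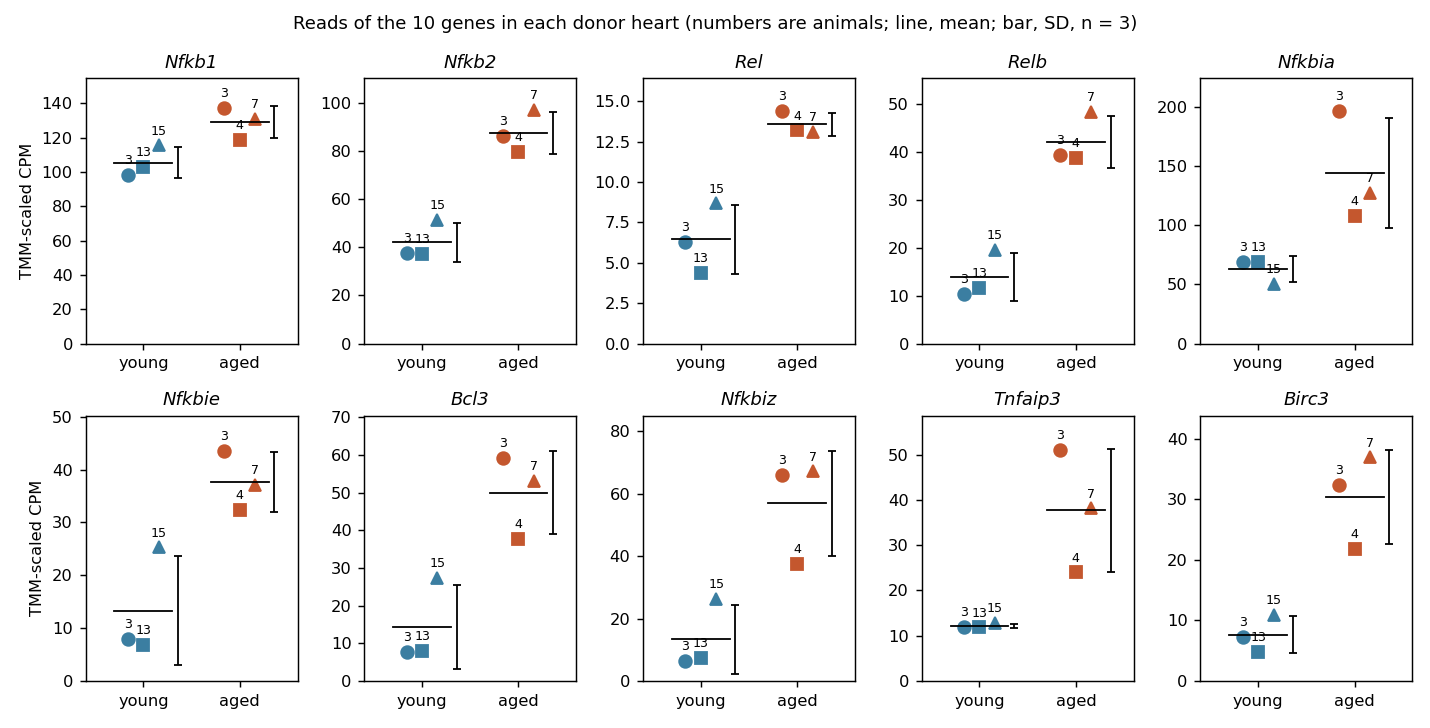
TMM-scaled CPM of each of the 10 genes in each donor heart, on a linear axis from 0 with its own scale per gene; numbers are animals, lines are means and bars are SD (n = 3). In every panel the aged hearts lie above the young ones, and young animal 15 is the highest young heart in 9 of 10 panels.

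Young animal 15 and aged animal 3 pulled in different directions. Young animal 15 was the highest young heart in CPM for 9 members, from 1.08 times the mean of the other young hearts for Tnfaip3 to 3.80 times for Nfkbiz, and 0.725 times for Nfkbia. Without it, 9 members were past the limits, beside 26.9% of all genes tested that rose. Leaving out aged animal 3 kept 8 members past the limits, beside 7.47% of all genes tested, with Nfkbie at a log2 fold change of 1.38 and short of them. Without both libraries, 9 members were past the limits beside 27.2% of all genes tested, and the log2 fold changes ran from 0.35 for Nfkb1 to 2.97 for Nfkbiz. In each of these settings all 10 members had every aged heart above every young one, which held for 37.8% of all genes tested without young animal 15, 24.7% without aged animal 3 and 41.3% without both. Since all 10 separated before any heart was left out, an omission could undo this only through rescaling and is no check of it. Marker sums of leukocytes were also higher in young animal 15 than in the other young hearts, and their part in its values of Nfkbie, Bcl3 and Nfkbiz was not tested.

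A ratio of reads inside one library does not depend on the scaling between libraries, so each member was also set against Rela in the same heart. Nfkb1 had 128, 137 and 130 reads per 100 Rela reads in young and 110, 129 and 107 in aged hearts. These groups overlapped, with a log2 difference of -0.20 (exact permutation test, two-sided, p = 0.2). For the other 9 members every aged heart was above every young one, each with p = 0.1 by the exact permutation test, the smallest that 3 hearts against 3 can give. The same separation in the ratio to Rela held for 6.20% of all genes tested. Those 9 results together with Nfkb1 are 10 comparisons, and no adjustment could bring any of them below 0.1. Nfkb2 had 49.0, 49.9 and 57.9 reads per 100 Rela reads in young and 68.8, 86.8 and 79.3 in aged hearts, a ratio 1.5 times higher. Relb went from 13.5, 15.5 and 22.0 to 31.4, 42.2 and 39.5, or 2.25 times. For Rel the ratio was 5.90 to 9.77 in young and 10.7 to 14.4 in aged hearts, so the groups came close.

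The inhibitor and enzyme genes were higher in aged hearts on this scale too. Nfkbia had 90.1, 91.9 and 56.3 reads per 100 Rela reads in young and 156, 118 and 104 in aged hearts, 1.6 times higher. Tnfaip3 was 2.11 times higher, at 14.4 to 15.8 in young and 26.1 to 40.8 in aged hearts. Nfkbie, at 10.4, 9.04 and 28.4 in young and 34.8, 35.2 and 30.3 in aged hearts, was separated by a narrow gap, with young animal 15 the nearest to the aged hearts. The largest ratios were those of Nfkbiz (8.31, 9.97 and 29.5 against 52.7, 40.9 and 54.9, 3.65 times), Bcl3 and Birc3 (both 2.93 times). The count of 9 of 10 members was the same with Chuk, Ikbkb and Ikbkg together in place of Rela, where 7.5% of all genes tested (1034 of 13781) separated.

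Levels of different genes can be compared only per unit of gene length, and the deposited FPKM values were used for this within each heart. In young hearts Nfkbia was highest of the 10, at 33.7 ± 1.3 FPKM (SD, n = 3), and Nfkb1 followed at 23.8 ± 7.46 (SD, n = 3). Next in order came Nfkb2, Nfkbie, Bcl3, Relb, Tnfaip3, Rel, Nfkbiz and Birc3, from 12.2 down to 3.07 FPKM, and among neighbours in the order only Nfkb1 and Nfkb2 had ranges that did not overlap. In aged hearts Nfkbia stood at 109 ± 40.7 FPKM (SD, n = 3) and Nfkb1 at 39.3 ± 4.65 (SD, n = 3), with no overlap between them. Nfkb2, Bcl3, Nfkbie, Relb, Tnfaip3, Nfkbiz and Birc3 followed, from 33.6 down to 15.8 FPKM, each overlapping its neighbour. Rel was last at 9.04 ± 0.923 FPKM (SD, n = 3), below all 3 values of Birc3. Nfkbia was thus the most abundant of these transcripts per unit length at both donor ages. Nfkbiz was below Rel in 2 of 3 young hearts and above it in young animal 15.

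Within the summed FPKM of the 5 factor genes the make-up moved from Rela and Nfkb1 to Nfkb2 and Relb. Rela made up 40.3, 39.4 and 37.2% in young and 35.8, 30.9 and 33.9% in aged hearts. Nfkb1 made up 32.6, 34.1 and 30.5% in young and 24.8, 25.2 and 22.9% in aged hearts. Both shares were lower in every aged heart than in any young one. Nfkb2 made up 15.7, 15.6 and 17.1% in young and 19.6, 21.4 and 21.4% in aged hearts. Relb made up 6.81, 7.63 and 10.2% in young and 14.1, 16.3 and 16.8% in aged hearts, the largest proportional move of the 5. The share of Rel was 3.19 to 5.0% in young and 5.01 to 6.13% in aged hearts, so that its groups all but touched. By the exact permutation test each of the 5 shares gave p = 0.1, the smallest possible, and the 5 are not independent since they sum to the whole. Set against each other, Nfkb2 had 48.3, 45.8 and 56.2 FPKM per 100 FPKM of Nfkb1 in young and 79.1, 84.6 and 93.5 in aged hearts (exact permutation test, p = 0.1).

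**Figure D4:**
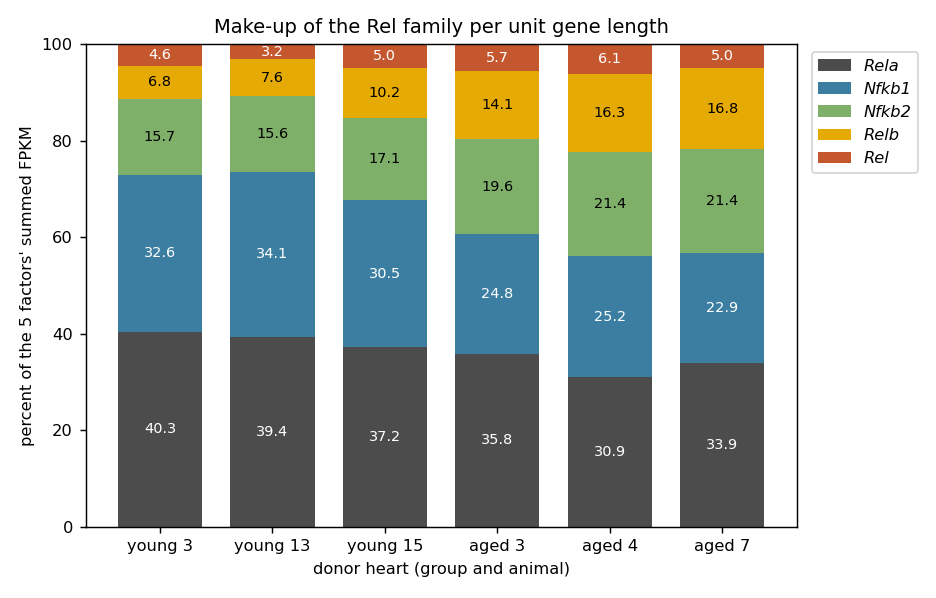
Share of each of the 5 Rel family factor genes in their summed FPKM, as stacked percent in each of the 3 young and 3 aged donor hearts. The Relb and Nfkb2 segments are wider in every aged heart and the Nfkb1 and Rela segments narrower, with young animal 15 nearest to the aged hearts for Relb.

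The inhibitor genes were compared with the factors in the same way. Nfkbia and Nfkbie together had 63.0, 62.0 and 48.8 FPKM per 100 FPKM of the 5 factors in young and 106, 73.4 and 70.7 in aged hearts, without overlap (exact permutation test, p = 0.1). The difference in means, 25.6, was 14.1 without aged animal 3. Inside the IkB family the groups did overlap. Bcl3 and Nfkbiz together had 11.6, 12.6 and 43.9 FPKM per 100 FPKM of Nfkbia and Nfkbie in young and 31.3, 32.8 and 42.9 in aged hearts (exact permutation test, p = 0.4). Young animal 15 had the highest value of all 6 hearts here, and young animals 3 and 13 were below every aged heart. Nfkbie had 11.2, 9.56 and 49.3 FPKM per 100 FPKM of Nfkbia in young and 21.7, 29.3 and 28.5 in aged hearts (exact permutation test, p = 1), and the sign of the difference turned when either of the other young hearts was left out.

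Likeness of profiles across the hearts was measured as the root-mean-square difference of log2 CPM after centring each gene over the 6 hearts. Nfkbie was nearest to Bcl3 among the members, at 0.18, and Nfkbiz was also nearest to Bcl3, at 0.20. For Nfkbia the nearest member was Tnfaip3, at 0.30. Nfkb2 and Rel were 0.20 apart, while Nfkb1 was no closer than 0.40 to any other member.

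Among 10920 genes with a mean of at least 5 CPM that are not members, the 2 nearest to each member were then listed as a description over 6 hearts. For the factor genes these were Ets2 (0.028) and Sec24b (0.036) for Nfkb1, Urb1 (0.090) and Cdkn2aipnl (0.092) for Nfkb2, Alg5 (0.11) and Tmem132e (0.11) for Rel, and Aen (0.14) and Cyb561d1 (0.14) for Relb. For the IkB genes they were Unc13d (0.13) and Prag1 (0.14) for Nfkbia, Ier5l (0.072) and Sowahc (0.084) for Nfkbie, Litaf (0.10) and Osmr (0.11) for Bcl3, and Clcf1 (0.15) and LOC100360087 (0.15) for Nfkbiz. For the enzymes they were Fbxl5 (0.086) and Zfp36 (0.12) for Tnfaip3, and Fam167a (0.18) and Zmynd15 (0.20) for Birc3. With 6 points a gene, many profiles lie close by, and a small difference here says only that the hearts were ordered and spaced alike.

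**Figure D5:**
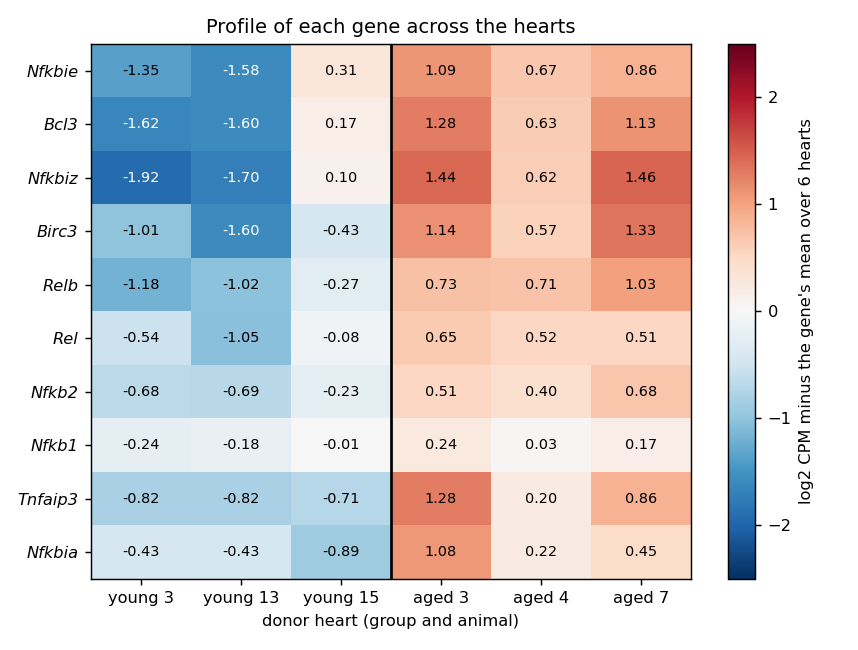
Log2 CPM of each of the 10 genes minus its mean over the 6 hearts, as a heat map with young hearts to the left of the line and aged hearts to the right. For Nfkbiz, Bcl3 and Nfkbie young animal 15 lies slightly above the gene's mean, at 0.10 to 0.31. Aged animal 3 is the highest heart for Nfkbia, Tnfaip3, Bcl3, Nfkbie, Rel and Nfkb1, and Nfkb1 varies least.

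The wider pathway was read from 74 other genes in 5 lists, of which 71 were tested. Of these 19 rose and 1 fell, with a median log2 fold change of 0.54, and 13.2% of all genes tested rose. The number that rose was 10 without young animal 3, 11 without young animal 13, 12 without aged animal 7 and 37 without young animal 15. The share of all genes tested that rose moved with it, at 5.83%, 6.13%, 8.79% and 26.9% in the same fits. Among 11 IkB kinase subunits and upstream kinases, Ikbkb, Ikbke and Map3k8 rose and Map3k7 fell. Ikbke, an IkB kinase relative that is itself inducible, had 9.07, 8.14 and 30.9 CPM in young and 81.6, 60.4 and 63.5 CPM in aged hearts (log2 fold change 2.09, edgeR adjusted p = 0.0916), with young animal 15 apart as for Nfkbiz. Map3k8, the kinase that the Nfkb1 precursor binds, had 8.53, 8.52 and 11 CPM in young and 33.1, 15.6 and 25.9 CPM in aged hearts. Map3k7, the kinase that activates the complex, had 1.78 and 1.49 CPM in young animals 13 and 15 and 0.796 to 1.15 CPM in aged hearts, but 9.44 CPM in young animal 3, and it did not pass the limits without that heart, nor without any one of the aged hearts.

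Adaptors and ligases of the receptor complexes rose in 4 of 17 and fell in 0, beside 13.2% of all genes tested that rose and 19.0% that fell. Ripk2, which relays signals from NOD receptors, had 19.1, 20.3 and 42.3 CPM in young and 58.4, 91.3 and 71.5 CPM in aged hearts. Card9, an adaptor of myeloid cells, rose by 1.45 and Ripk1, the kinase of the tumour necrosis factor receptor complex, by 0.91 on the log2 scale. Traf3, which holds back the noncanonical kinase, was the remaining one. Of 15 deubiquitinases and other brakes, 3 rose and 0 fell, beside the same shares of all genes tested. Tnip2, a partner of TNFAIP3, rose by 1.00 on the log2 scale (24.5 to 31.8 CPM in young, 43.7 to 60.8 in aged hearts) and kept past the limits with each heart left out. Nkrf and Otulin, at log2 fold changes of 0.99 and 0.84, kept past them only without young animal 15. The remaining genes of the Rel and IkB families, Rela, Nfkbib, Nfkbid and Nfkbil1, gave 0 of 4 past the limits, with a median log2 fold change of 0.49. The largest was 1.71 for Nfkbid (SE 0.76, edgeR adjusted p = 0.164). Nfkbid had 0.605, 0.699 and 4.17 CPM in young animals 3, 13 and 15 and 6.67, 5.04 and 6.55 CPM in aged animals 3, 4 and 7.

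Target genes, cytokines and adhesion molecules among them, rose in 9 of 24 tested and fell in 0, with a median log2 fold change of 1.57. Of all genes tested 13.2% rose. The targets that rose were Cxcl1, Cxcl2, Ccl20, Il1b, Il6, Icam1, Ier3, Lif and Csf1. The other 15 did not pass the limits, and the lowest log2 fold change among them was -0.33, for Sod2. Cxcl2, a neutrophil attractant, had 0.121, 0.318 and 0.330 CPM in young hearts, from 2, 5 and 8 reads, and 20.6, 3.34 and 17.0 CPM in aged hearts (log2 fold change 5.68, SE 0.85, edgeR adjusted p = 0.0916). Il1b had 1.94, 0.763 and 6.90 CPM in young and 62.5, 24.8 and 52.8 CPM in aged hearts. Il6 had 0, 0 and 10 reads in young and 94, 26 and 213 reads in aged hearts, so its fold change rests on young animal 15 and is not given. Aged animal 4 was the lowest aged heart for Cxcl2, Il1b and Il6, as it was for 9 of the 10 members. Tnf had too few reads to be tested, and how far these levels moved with the neutrophil and macrophage marker sums given above was not tested.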

How the data were processed

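The authors deposited, for 22250 rat genes in 6 hearts, raw read counts without normalization and FPKM values. Deposited FPKM matched count over gene length and library total for all but 1 of 133500 values (relative tolerance 0.001) and for all 60 values of the members. The submitters' processing notes name HISAT2 2.0.5, StringTie 1.3.3b, featureCounts 1.5.0-p3, DESeq2 1.16.1, GATK 3.7 and Rnor 6.0. Use of strand in counting is not given in the sources used here.

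The test on counts used edgeR 4.0.16 (filterByExpr, TMM, glmQLFit and glmQLFTest, no covariates) under R 4.3.3, with DESeq2 1.42.0 and limma 3.58.1 as alternatives. Permutation tests used scipy 1.17.1 under Python 3.11.15. Standard errors (SE) were obtained by dividing the log2 fold change by the square root of F. Adjusted p-values are Benjamini-Hochberg over all 13784 genes tested. P-values measure the spread between donor animals. Log2 CPM used a prior count of 2 and ratios to Rela a pseudocount of 0.5 reads. Exact permutation tests were two-sided. The step across all genes was tested on simulated data. The simulated counts had a single dispersion, balanced changes and no outlying library. They therefore do not show how the test behaves with libraries such as young animal 15 and aged animal 3.

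The 10 members and all gene lists were chosen with earlier results of these data known. Named by rule were the members, Rela, Chuk, Ikbkb and Ikbkg, from each pathway list up to 3 genes of largest absolute log2 fold change past the limits, without overlap between groups and with a mean of at least 1 CPM, and the 2 nearest profiles of each member. Birc2, the values of Nfkbid, the atrial marker genes and the list genes past the limits that this rule does not cover were added after the values were seen. Rnf11, Pecam1, Col1a2 and Ttn were not analysed here. Promoter windows are RefSeq, assembly GRCr8, and gene coordinates are those of the table. Alternatives were other size factors, filters, tools and pseudocounts, and leaving out each heart. Leaving out young animal 15 and aged animal 3 together and the alternatives for FPKM shares were added after seeing the data.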

Additional observations from a re-analysis of the deposited data

How the results depend on the processing

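All 10 members had every aged heart above every young one under each scaling, filter and omission of hearts tried (the DESeq2 and limma-voom tests give no such value). All 10 already separated with all 6 hearts, so an omission or a filter could undo this only through rescaling. Those settings are therefore no check of the separation. From 8 to 10 members were past the limits in each setting except an adjusted p-value limit in edgeR. That limit left 0 members, 0 pathway genes and 0 of all genes (9 members and 4731 genes had an unadjusted p-value under 0.05). Genes past the limits numbered 4436 of those tested, 7504 with limma-voom, 2432 to 7214 with 1 heart left out and 7396 without young animal 15 and aged animal 3. Pathway genes that rose numbered 19, 10 to 37 with 1 heart left out and 37 without those 2 hearts, beside 5.83% to 26.9% and 27.2% of all genes tested that rose. Scaling by library totals alone moved the median of all genes from 0.016 to 0.46, the share higher among genes past the limits from 40.9% to 68.6%, and Nfkb1 to 0.72, past the limits, so its change is not separated from that shift; limma-voom gave a share of 49.2%. Nfkbie was past the limits in 1 of 6 fits with a heart left out (1.18 to 2.40). The difference of Nfkbie per 100 Nfkbia FPKM, 3.12, became -2.96 without young animal 3, -3.78 without young animal 13 and 16.1 without young animal 15; the cause was not tested. No paired analysis was possible because the groups share only animal number 3, which names different animals. Depth limits Cxcl2 and Il6 in young hearts, at 10 reads or fewer.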
